A study of Mus musculus with 9 samples.

Results

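The 5 genes described here are the Kruppel-like factors Klf2, Klf4, Klf6, Klf9 and Klf10, taken by gene symbol from a table of 27497 gene identifiers. Each symbol matched 1 identifier. Gene expression was measured by sequencing polyadenylated RNA of the olfactory bulb from 9 separate adult mice of the C57/BL6 strain (6 to 8 weeks of age or more), 3 in each group. Clean air mice breathed air cleaned by activated carbon, 30 min mice were taken at the end of 30 min in a mixture of odorants, and 120 min mice had the same 30 min of odor and then 90 min of clean air. All groups were of 1 strain and carried no stated genetic change. The series' title poses the question of how fast transcription responds to neuronal activity in the living animal.

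Kruppel-like factors are zinc finger transcription factors that bind GC-rich and CACCC-containing DNA, and they share this DNA-binding domain with the Sp factors. Several are immediate-early or hormone-responsive genes, transcribed soon after a signal reaches the cell. In blood vessels, Klf2 and Klf4 are induced by flow through a kinase pathway that ends on MEF2 factors, and they keep the endothelium quiescent. In the brain, Klf4 and Klf9 are known as inhibitors of axon growth in cultured neurons and Klf6 as a promoter of it. Klf9 is also a direct target of glucocorticoid and thyroid hormone receptors, and Klf10 is an early gene of TGF-beta signalling.

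The depth recovered for the libraries was 7.16 to 29.8 megareads (M). Markers of bulb cells were abundant, with means over the 9 libraries of 417 RPKM (reads relative to gene length and sequencing depth) for Gad1, 194 RPKM for Th and 146 RPKM for Cdhr1. These genes mark inhibitory interneurons, dopaminergic periglomerular cells and mitral and tufted cells. The RNA came from whole bulb, so fewer cells of a type and less RNA per cell cannot be told apart.

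All 5 genes were detected in every mouse, and their levels per length differed widely. Klf9 stood highest in clean air with 36.88, 29.10 and 43.07 RPKM in the 3 mice, above 92.4% of all identifiers by its mean. Of these 27497 identifiers, 7969 were at 0 in all libraries. Klf2 followed with 5.95, 8.02 and 5.13 RPKM, and its range overlapped neither that of Klf9 nor that of any lower member. Klf6 averaged 2.97 ± 0.0723 RPKM, Klf10 2.62 ± 0.721 RPKM and Klf4 2.22 ± 0.195 RPKM in clean air (SD, n = 3), and neighbours in this order overlapped. Klf9 and Klf2 kept the top places by their means in the 30 min and 120 min mice, and at 120 min again without overlap. At 30 min the lowest Klf2 value, 6.46 RPKM in mouse 2, was under the highest Klf4 value, 6.88 RPKM in mouse 1. Below them the order was Klf10, Klf4 and Klf6 in both exposed groups, with overlapping neighbours. The lowest estimated read number behind any of these values was 68, for Klf4, and the highest was 6464, for Klf9.

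**Figure D1:**
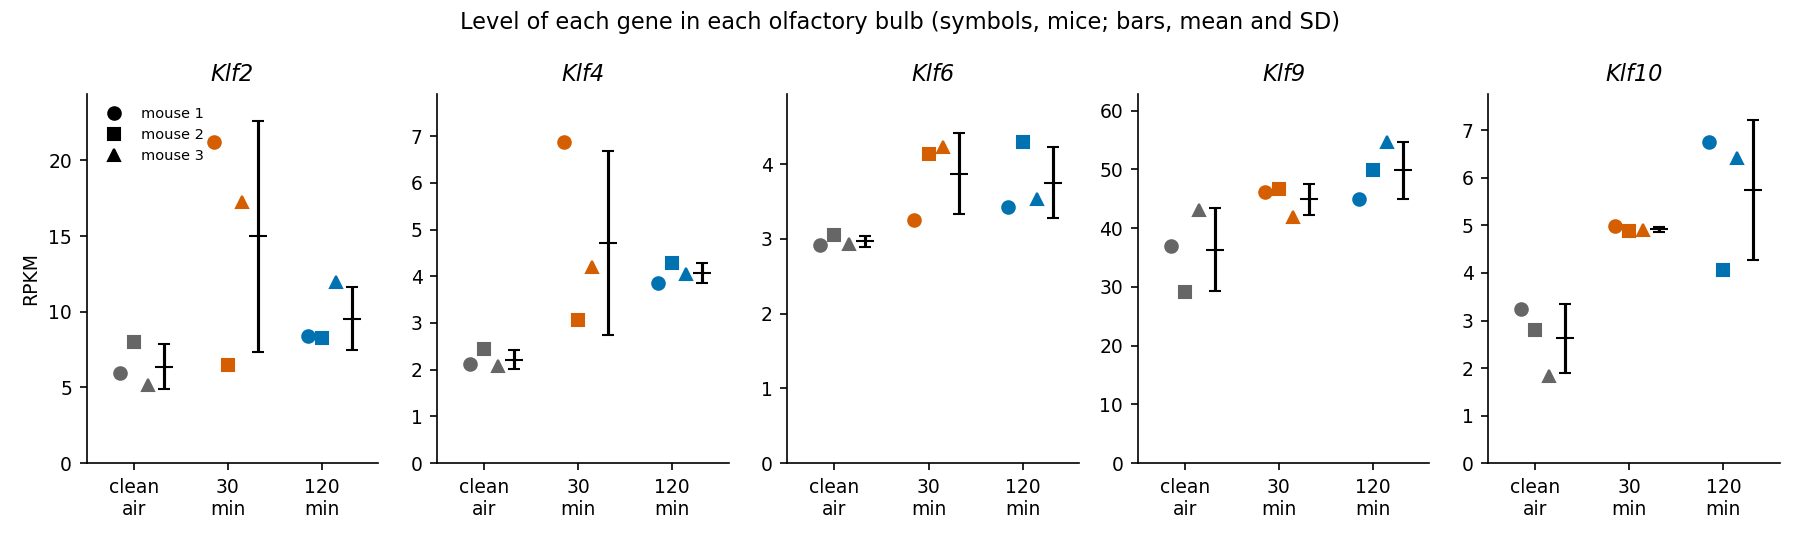
RPKM (vertical axes, linear, from 0) of Klf2, Klf4, Klf6, Klf9 and Klf10 in each mouse, with the group mean and SD (n = 3), for clean air, 30 min and 120 min. Klf4, Klf6 and Klf10 show every exposed mouse above every clean air mouse, and 30 min mouse 2 lies within the clean air range of Klf2 at 6.46 RPKM.

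After 30 min of odor, the fitted levels of Klf2, Klf4 and Klf10 were 2.05, 1.84 and 1.77 times those in clean air, but none of the 5 genes passed the test across all genes. The test was limma on log2(RPKM + 0.5), with Benjamini-Hochberg adjustment over 12780 genes of at least 1 RPKM on average and a threshold of 0.05. All 5 members reached 1 RPKM in every clean air mouse, so none entered the test through an exposed group alone. At this threshold 0 of 5 members and 0.141% of all tested genes were called. At an unadjusted p under 0.05 these were 3 of 5 members (Klf2, Klf4 and Klf10) and 5.92% of genes. Both counts changed with the mice in the fit, and fits without a mouse also have fewer samples to set the spread. Over all tested genes 756 had an unadjusted p under 0.05, against 1269 without clean air mouse 1 and 397 without 30 min mouse 2. Klf2 was no longer among the members counted when clean air mouse 3, 30 min mouse 1 or 30 min mouse 3 was left out. In the fit blocked by mouse number, 1396 genes (10.9%) and the same 3 members had an unadjusted p under 0.05, and no member was called. Groups did not overlap, with the 30 min mice above, for 3 of 5 members (Klf4, Klf6 and Klf10) and for 7.29% of genes. The median log2 change was 0.82 over the 5 members and 0.08 over all tested genes.

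Klf2 (ENSMUSG00000055148) is a flow-responsive factor best known from endothelial cells and lymphocytes. It had 21.23, 6.46 and 17.24 RPKM in 30 min mice 1, 2 and 3, against 5.95, 8.02 and 5.13 RPKM in clean air mice 1, 2 and 3. Mice 1 and 3 of the 30 min group were above every clean air mouse, and mouse 2 lay inside the clean air range. The counting intervals (95%, exact Poisson on estimated reads) were 19.0 to 23.6, 5.79 to 7.18 and 15.8 to 18.7 RPKM in these 30 min mice, so the distance between them was larger than counting error. The log2 change was 1.04 ± 0.37 (SE; 95% interval 0.22 to 1.86), with a limma adjusted p of 0.790. Without 30 min mouse 2 it was 1.54 ± 0.25, with a limma adjusted p of 0.0751, and leaving out other mice gave values down to 0.72.

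Klf4 (ENSMUSG00000003032), its close relative and one of the factors used to reprogram cells to pluripotency, had 6.88, 3.06 and 4.20 RPKM in the 30 min mice, against 2.13, 2.44 and 2.08 RPKM in the clean air mice. All exposed mice were above all clean air mice, with mouse 1 highest and mouse 2 lowest, the same order as for Klf2. The log2 change was 0.88 ± 0.26 (95% interval 0.31 to 1.45), and the limma adjusted p was 0.731. Over the 9 libraries the log2 values of Klf2 and Klf4 had a Pearson r of 0.868, and 0.829 after the group means were taken off. These are descriptions over libraries that differ in depth. No other pair of members exceeded 0.695 over the 9 libraries, which was the value of Klf4 with Klf10, or 0.236 after the group means were taken off. The 30 min mice differed most, with SDs of 7.64 RPKM for Klf2 and 1.96 RPKM for Klf4. These SDs were 1.49 and 0.195 RPKM in clean air mice and 2.10 and 0.215 RPKM in 120 min mice. In clean air Klf2 and Klf4 ran in the same order of mice. At 120 min Klf2 was highest in mouse 3 and Klf4 in mouse 2. No r was taken without the 30 min mice.

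The promoters of Klf2 and Klf4 are shown because induction of both genes through MEF2 factors has been described in endothelium, and that of Klf9 for its lower GC content. Each is the stretch of 250 bases before the RefSeq transcription start on GRCm38.p6, read 5′ to 3′ on the gene's strand. Capitals mark the MEF2 motif in Klf2, the GC boxes of either strand in Klf4 and the CRE core TGACG in Klf9. The windows are chr8:72318812-72319061 (plus strand) for Klf2, chr4:55532476-55532725 (minus strand) for Klf4 and chr19:23140976-23141225 (plus strand) for Klf9.

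Klf2: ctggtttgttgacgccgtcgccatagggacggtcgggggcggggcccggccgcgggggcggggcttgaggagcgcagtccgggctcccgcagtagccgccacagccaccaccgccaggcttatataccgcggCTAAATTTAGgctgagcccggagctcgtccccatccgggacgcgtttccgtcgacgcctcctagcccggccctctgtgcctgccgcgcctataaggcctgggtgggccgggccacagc

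Klf4: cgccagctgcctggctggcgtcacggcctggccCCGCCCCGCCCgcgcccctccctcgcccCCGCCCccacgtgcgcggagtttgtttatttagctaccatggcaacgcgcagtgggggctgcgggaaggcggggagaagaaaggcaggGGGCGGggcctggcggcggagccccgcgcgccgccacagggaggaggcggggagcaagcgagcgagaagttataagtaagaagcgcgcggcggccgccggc

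Klf9: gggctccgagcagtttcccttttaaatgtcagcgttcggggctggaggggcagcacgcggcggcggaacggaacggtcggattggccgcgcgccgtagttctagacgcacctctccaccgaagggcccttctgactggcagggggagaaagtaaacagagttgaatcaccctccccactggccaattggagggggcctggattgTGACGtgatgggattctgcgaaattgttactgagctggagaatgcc

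On both strands, the GC box GGGCGG occurred 2 times in Klf2, 4 times in Klf4 with 1 pair sharing a base, and 1 time in Klf6, and 32.7% of all 32851 promoter windows of this length held it. The MEF2 motif was found in the Klf2 window alone among the 4 members matched, against 2.92% of all windows. The CRE core TGACG, a part of the cAMP response element, was found 1 time each in Klf2, Klf4 and Klf9, against 17.8% of all windows. The EGR motif GCGNGGGCG, which overlaps a GC box in both genes, occurred 1 time in Klf2 and 2 times in Klf4, against 4.70% of windows. Klf9 also held 1 match to the AP-1 motif TGANTCA (6.75% of windows), which overlaps its CACCC box, and Klf2 and Klf9 each held 1 CACCC box (52.0%). No window of the 4 held the full CRE TGACGTCA (1.55%), the CArG box (1.47%) or the palindromic glucocorticoid response element (0.387%). GC content was 71.2% in Klf2, 74.0% in Klf4, 64.8% in Klf6 and 59.6% in Klf9, against a median of 52.4% over all windows. Motif matches are descriptions of these letters only.

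Klf10 (ENSMUSG00000037465), a transcriptional repressor first described as a TGF-beta-inducible gene, showed 4.98, 4.88 and 4.90 RPKM in the 30 min mice, against 3.24, 2.80 and 1.83 RPKM in the clean air mice. The 30 min mice lay within 0.10 RPKM of each other and all above clean air. The log2 change was 0.82 ± 0.24 (95% interval 0.29 to 1.36), with a limma adjusted p of 0.731.

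Klf6 (ENSMUSG00000000078), a widely expressed factor induced by injury, had 3.25, 4.14 and 4.23 RPKM in the 30 min mice, against 2.92, 3.05 and 2.93 RPKM in the clean air mice. The groups did not overlap, but the log2 change was 0.33 ± 0.19 (95% interval -0.10 to 0.75; limma adjusted p = 0.834). Klf9 (ENSMUSG00000033863) had 46.16, 46.68 and 41.90 RPKM in the 30 min mice, against 36.88, 29.10 and 43.07 RPKM in the clean air mice. Mouse 3 of the 30 min group was below mouse 3 in clean air, so these groups overlapped, and the log2 change was 0.32 ± 0.17 (95% interval -0.06 to 0.69; limma adjusted p = 0.832). Without clean air mouse 2, the lowest of all 9, the Klf9 change at 30 min was 0.17 ± 0.16. The microRNA gene Mir1192 lies inside the Klf9 span on the same strand and averaged 0.223 RPKM.

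At 120 min, every 120 min mouse was above every clean air mouse for all 5 genes. Again no member was called, at a limma threshold that 0.0861% of tested genes passed. At an unadjusted p under 0.05 there were 3 of 5 members (Klf4, Klf9 and Klf10), against 9.57% of genes, and groups were separate and higher at 120 min for 5 of 5 members, against 7.86% of genes. The median log2 change was 0.55 over the members and 0.03 over all tested genes. The count of 11 genes called in this comparison changed with the mice in the fit. Fits without a mouse also have fewer samples to set the spread, so whether any call rested on a single mouse was not tested. Leaving out clean air mouse 2, or else 120 min mouse 3, left 0 calls. In these fits 1090 and 855 genes still had an unadjusted limma p under 0.05. The count was 3 without either of the other 120 min mice and 6 without clean air mouse 1.

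Klf10 had the largest change of the 5 at this time, at 6.76, 4.06 and 6.41 RPKM in the 120 min mice, against 3.24, 2.80 and 1.83 RPKM in the clean air mice. Mice 1 and 3 of the 120 min group were clearly higher than mouse 2. The log2 change was 1.00 ± 0.24 (95% interval 0.46 to 1.54; limma adjusted p = 0.339). Klf4 had 3.86, 4.29 and 4.05 RPKM in the 120 min mice, against 2.13, 2.44 and 2.08 RPKM in the clean air mice, and both groups were tight. Its log2 change was 0.75 ± 0.26 (95% interval 0.18 to 1.32; limma adjusted p = 0.391).

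Klf2 had 8.40, 8.28 and 11.98 RPKM in the 120 min mice, against 5.95, 8.02 and 5.13 RPKM in the clean air mice. The closest mice of the groups were 8.28 and 8.02 RPKM, and the log2 change of 0.55 ± 0.37 had an interval that spanned 0 (-0.27 to 1.37; limma adjusted p = 0.685). Klf9 had 44.99, 49.86 and 54.71 RPKM in the 120 min mice, against 36.88, 29.10 and 43.07 RPKM in the clean air mice. Its log2 change was 0.46 ± 0.17 (95% interval 0.09 to 0.84; limma adjusted p = 0.431). It was 0.31 ± 0.16 without clean air mouse 2 and 0.40 ± 0.19 without 120 min mouse 3, and in both cases Klf9 left the members counted at an unadjusted p under 0.05. Klf6 had 3.43, 4.30 and 3.53 RPKM in the 120 min mice, against 2.92, 3.05 and 2.93 RPKM in the clean air mice, a log2 change of 0.29 ± 0.19 (95% interval -0.13 to 0.71; limma adjusted p = 0.684).

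The exposed times were also set against each other directly, where no member passed the test and the groups overlapped for all 5. At the adjusted threshold 0 of 5 members and 0.0782% of genes were called, at an unadjusted p under 0.05 there were 0 of 5 members and 3.36% of genes, and 0 of 5 members and 4.99% of genes were separate and higher at 120 min. The log2 difference of 120 min minus 30 min was -0.49 ± 0.37 for Klf2 (95% interval -1.30 to 0.33), -0.13 ± 0.26 for Klf4 (-0.69 to 0.44) and -0.04 ± 0.19 for Klf6 (-0.46 to 0.38). It was 0.15 ± 0.17 for Klf9 (-0.23 to 0.52) and 0.17 ± 0.24 for Klf10 (-0.36 to 0.71), and the limma adjusted p was 0.999 for each of the 5. The intervals leave room for a log2 difference of up to 1.30 in Klf2. The median over all tested genes was -0.03. The sign of the Klf4 difference turned without 30 min mouse 1, where it was 0.16.

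**Figure D2:**
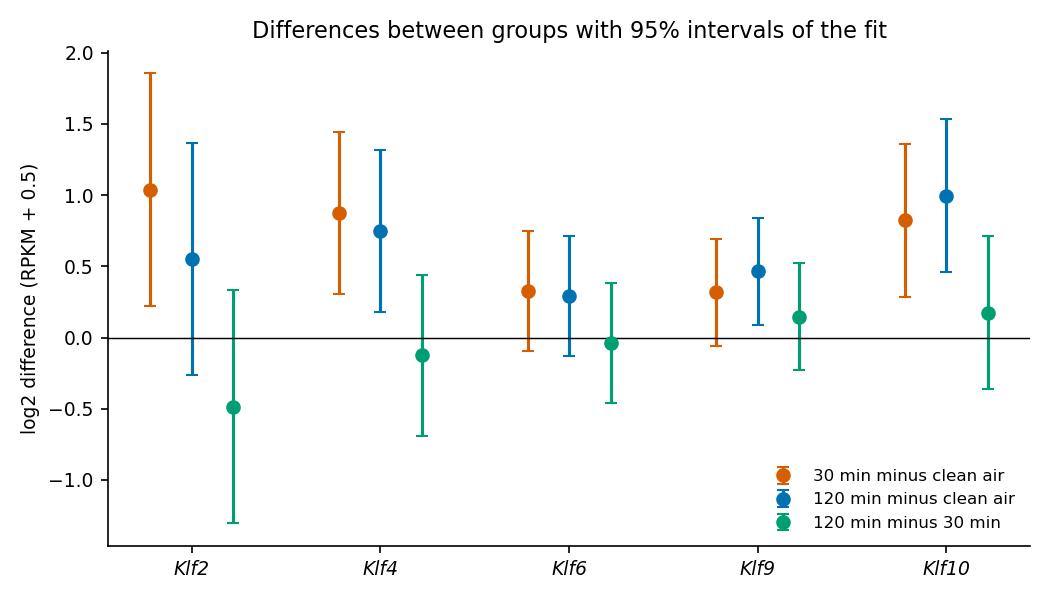
Log2 difference on the RPKM + 0.5 scale (vertical axis) of each Kruppel-like factor with its 95% limma interval, for each exposed time minus clean air and for 120 min minus 30 min. All 5 estimates lie above 0 against clean air at both times, and all 5 intervals of 120 min minus 30 min span 0.

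A comparison of both exposed groups together with clean air was added after the data were seen, because the exposed groups overlapped for every member; it shares the clean air mice with the comparisons above. No member was called, against 0.125% of genes. At an unadjusted p under 0.05 there were 4 of 5 members (all but Klf6), against 9.62% of genes, and for 3 of 5 (Klf4, Klf6 and Klf10) all 6 exposed mice were above all 3 clean air mice, against 3.09% of genes. Klf10 had a log2 change of 0.91 ± 0.21 (limma adjusted p = 0.302), Klf4 of 0.81 ± 0.22 (limma adjusted p = 0.315) and Klf2 of 0.80 ± 0.32 (limma adjusted p = 0.474). Klf9 had 0.39 ± 0.15 (limma adjusted p = 0.435; 0.24 ± 0.14 without clean air mouse 2) and Klf6 had 0.31 ± 0.17 (limma adjusted p = 0.598). Klf2 left the 4 members counted when clean air mouse 1 or 3, 30 min mouse 1 or 3, or 120 min mouse 3 was dropped, and Klf9 left them without clean air mouse 2.

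Since Klf2 and Klf4 are known from endothelium, though not from it alone, the markers of endothelial and mural cells were set beside them. In the 30 min mice Klf2 was 3.33, 1.01 and 2.71 times its clean air mean and Klf4 was 3.10, 1.38 and 1.89 times its own. The summed level of 12 endothelial markers was 1.13, 0.842 and 1.03 times its clean air mean in the same mice, and that of 8 mural markers was 1.30, 0.998 and 1.26 times. The endothelial sum is carried by 1 gene: Cldn5, a tight junction gene, made up 35.5% to 67.0% of it and had 68.35, 41.38 and 70.32 RPKM in the 30 min mice, against 76.06, 77.01 and 86.88 RPKM in the clean air mice, a log2 change of -0.45 ± 0.21 (limma adjusted p = 0.824). Without Cldn5, in a sum added after the data were seen, the other 11 markers came to 88, 75.17 and 72 RPKM in 30 min mice 1, 2 and 3, against 67.29, 65.39 and 42.78 RPKM in clean air mice 1, 2 and 3, and the groups did not overlap. Klf2, Klf4, the sum of 12 endothelial markers and the mural sum ran in the order mouse 1, mouse 3, mouse 2, the sum of 11 in the order mouse 1, mouse 2, mouse 3, and the depth ran in the opposite order, at 8.80 M, 17.4 M and 28.8 M reads in mice 1, 3 and 2. Summed endothelial markers ranged from 117 to 156 RPKM in 30 min mice and from 130 to 143 RPKM in clean air mice, and summed mural markers from 70.6 to 91.8 RPKM in 30 min mice and from 56.5 to 82.6 RPKM in clean air mice. None of the 12 endothelial or 8 mural markers was called, and none was at 0 in all libraries. At 30 min 11 of 12 endothelial and 8 of 8 mural markers had positive log2 changes, with medians of 0.37 and 0.28, and 3 endothelial markers had an unadjusted p under 0.05. Of all tested genes 61.8% had a positive change at 30 min and 53.9% at 120 min. Summed red blood cell markers were 152.66, 196.81 and 173.9 RPKM in the 30 min mice, against 144.82, 77.42 and 38.0 RPKM in the clean air mice, so that these groups did not overlap. In the 120 min mice the sum was 46.31, 188.52 and 168.18 RPKM and overlapped clean air. Of the 4 red blood cell markers the near-identical alpha globin genes Hba-a1 and Hba-a2 were listed at 0 in all libraries, and neither of the other 2 was called. The part of these cells in the Klf2 and Klf4 values was not tested. No marker of microglia, astrocytes, oligodendrocytes, GABAergic interneurons, mitral and tufted cells or dopaminergic cells, and none of 9 axon growth and myelin genes, was called against clean air at 30 min or 120 min. Of 5 mitral and tufted cell markers, 1 at 30 min and 3 at 120 min were higher at an unadjusted p under 0.05, with median log2 changes of 0.37 at 30 min and 0.44 at 120 min. Of 6 astrocyte markers, 2 at 30 min and 1 at 120 min were higher at that threshold, with medians of 0.26 and 0.19. Over all tested genes 5.92% at 30 min and 9.57% at 120 min passed it in either direction. Cyr61, a matrix gene looked at after its values were seen, had 24.32, 7.10 and 15.26 RPKM in 30 min mice 1, 2 and 3. Its values were 2.43, 2.56 and 1.98 RPKM in the clean air mice and 1.48, 2.71 and 1.97 RPKM in the 120 min mice. Every 30 min mouse was thus above every mouse of the other groups.

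**Figure D3:**
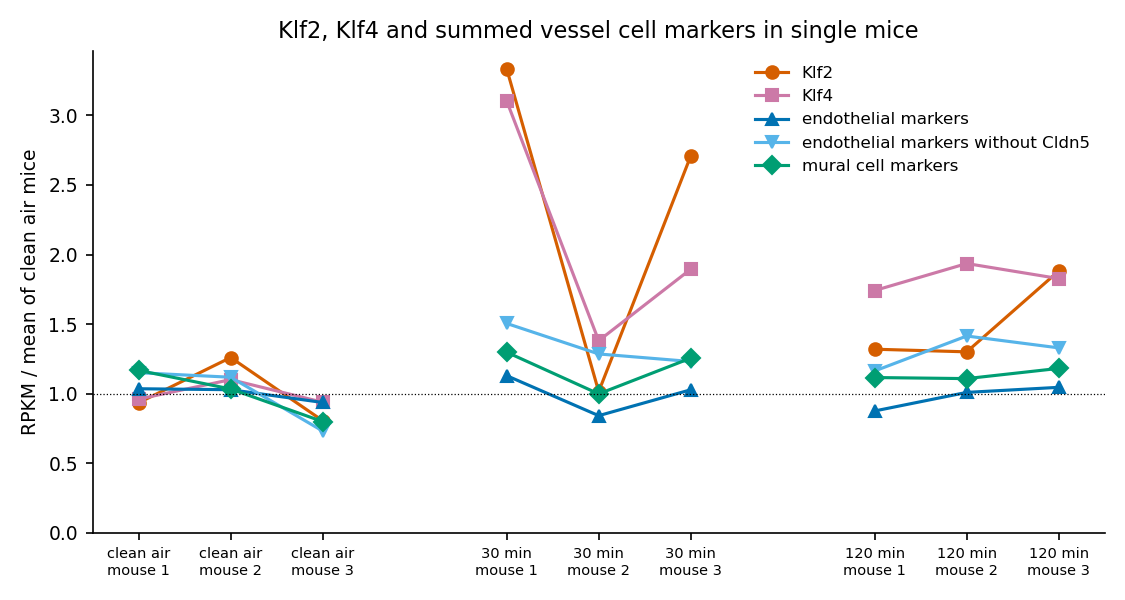
Level relative to the clean air mean (vertical axis, linear) of Klf2, Klf4, the summed endothelial markers with and without Cldn5 and the summed mural markers in each of the 9 mice; joined points belong to 1 item and the mice of a group have no order. In the 30 min mice Klf2 spans 1.01 to 3.33, the sum of all 12 endothelial markers 0.842 to 1.13 and the sum of the 11 without Cldn5, which makes up much of the total and was lower than in clean air, 1.23 to 1.5.

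The genes downstream of Klf2 and Klf4 in endothelium were described from a list of 13 found genes, of which 10 were tested. None was called in either comparison with clean air, and their median log2 change was 0.23 at 30 min and 0.24 at 120 min. Eng, a TGF-beta coreceptor of endothelium, had log2 changes of 0.33 ± 0.22 at 30 min and 0.68 ± 0.22 at 120 min (limma adjusted p = 0.841 at 30 min; limma adjusted p = 0.364 at 120 min). S1pr1, a sphingosine phosphate receptor of endothelium, had 0.25 ± 0.15 and 0.42 ± 0.15 (limma adjusted p = 0.838 at 30 min; limma adjusted p = 0.437 at 120 min).

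Of 24 tested genes for activators of Klf transcription, none was called at either time, and their median log2 change was 0.22 at 30 min and 0.44 at 120 min. At an unadjusted p under 0.05, 7 were higher at 30 min, and 9 were higher and 1 lower at 120 min. Over all tested genes the shares in either direction were 5.92% and 9.57%. Every exposed mouse was above every clean air mouse for 7 of the 24 at 30 min and 10 at 120 min, against 7.29% and 7.86% of genes. Mef2d, a MEF2 factor, had 0.20 ± 0.20 at 30 min and 0.69 ± 0.20 at 120 min (limma adjusted p = 0.875 at 30 min; limma adjusted p = 0.344 at 120 min), with all 120 min mice above all clean air mice. The other MEF2 genes are given with their values seen. Mef2a had 0.65 ± 0.16 at 30 min (limma adjusted p = 0.559) and 0.86 ± 0.16 at 120 min (limma adjusted p = 0.224), with every exposed mouse of either time above every clean air mouse. Mef2c had 0.67 ± 0.24 at 30 min, without overlap (limma adjusted p = 0.790), and 0.48 ± 0.24 at 120 min, with overlap. Mef2b, at a mean of 1.22 RPKM, had -0.03 ± 0.34 and -0.74 ± 0.34. Thra, the thyroid hormone receptor alpha gene, had 0.10 ± 0.23 and 0.17 ± 0.23. Of 20 genes for corepressors and partners of Klf proteins none was called, with median log2 changes of 0.13 and 0.16, and the corepressor gene Ctbp1 had -0.08 ± 0.16 at 30 min and -0.10 ± 0.16 at 120 min.

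Among 19 tested glucocorticoid-responsive genes, 1 was called at 30 min. Dusp1 rose to 56.6 ± 7.49 RPKM in 30 min mice against 14.2 ± 3.41 RPKM in clean air mice (SD, n = 3; log2 change 1.97 ± 0.18, limma adjusted p = 6.20e-04). Dusp1 encodes a MAP kinase phosphatase that is also an immediate-early gene. At an unadjusted p under 0.05, 5 of the 19 were higher and none lower at 30 min, against 5.92% of all tested genes in either direction. Separate groups with the 30 min mice above were found for 6, against 7.29% of genes. At 120 min none of the 19 was called and, unadjusted, 3 were higher and 1 lower, against 9.57% of genes in either direction. The median log2 change of the 19 was 0.20 at 30 min and 0.19 at 120 min. It was positive for 12 of the 19 at 30 min and 18 at 120 min, against 61.8% and 53.9% of all tested genes. Of 22 immediate-early transcription factor genes outside the family, 13 rose at 30 min and none fell, with a median of 1.79, and 6 rose at 120 min, with a median of 0.40. The log2 changes of these 13 ran from 1.59 ± 0.18 (Nr4a2, a nuclear receptor) to 4.53 ± 0.33 (Fos, an AP-1 subunit). Set among all 22 by the size of the change, Klf2, Klf4 and Klf10 each exceeded 8 of them, and Klf6 and Klf9 each exceeded 4, all of these among the 9 that were not called. Between 120 min and 30 min, 7 of the 22 fell and the median was -0.48.

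The Klf and Sp family in the bulb held 25 genes in the table, of which 19 were tested. The 6 left out averaged under 1 RPKM, and Klf17 was at 0 in all 9 libraries. By the mean RPKM over all mice, Klf9 was at place 2 of the 19, Klf2 at place 9, and Klf10, Klf4 and Klf6 at places 14, 15 and 16. Sp9, which is needed for the development of bulb interneurons, was highest, averaging 61.5 ± 7.09 RPKM in the 30 min group and 80.8 ± 17.3 RPKM in the clean air group. Its log2 change was -0.37 ± 0.19 at 30 min (limma adjusted p = 0.832) and -0.22 ± 0.19 at 120 min (limma adjusted p = 0.760).

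None of the 14 other tested family genes was called at either time. At 30 min 13 of 14 had positive log2 changes, against 61.8% of all tested genes, with a median of 0.19. An unadjusted p under 0.05 was found for 1 (Klf12), against 5.92% of genes. At 120 min 12 of 14 were positive, against 53.9% of genes, with a median of 0.40. Of the 14, 4 had an unadjusted p under 0.05, against 9.57% of genes. Klf16 had 43.21, 40.94 and 49.91 RPKM in the 120 min mice, against 27.10, 32.94 and 30.01 RPKM in the clean air mice. Its groups did not overlap, and the log2 change was 0.57 ± 0.15 (limma adjusted p = 0.339). Klf13 had 0.64 ± 0.24 (limma adjusted p = 0.438) and Klf15, a glucocorticoid-induced gene, had 0.47 ± 0.19 (limma adjusted p = 0.475), and their groups overlapped. Klf12, named after its values were seen, had 0.71 ± 0.23 (limma adjusted p = 0.370), and its groups did not overlap. Klf13 had 54.42, 40.77 and 54.91 RPKM in the 120 min mice and 29.27, 25.31 and 42.81 RPKM in the clean air mice, where mouse 3 stood above 120 min mouse 2.

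**Figure D4:**
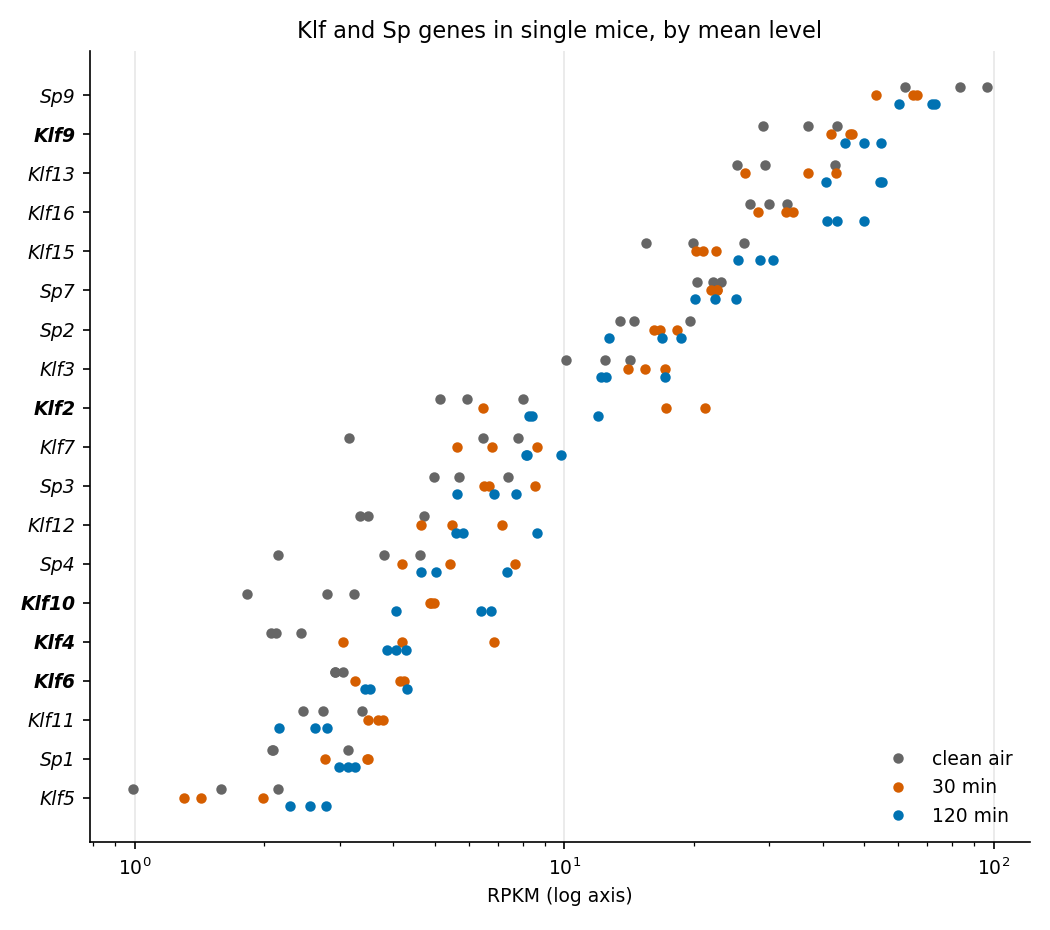
RPKM (horizontal logarithmic axis) of the 19 tested Klf and Sp genes, with 1 point per mouse for clean air, 30 min and 120 min and the genes ordered by their mean over all mice; the 5 genes of the report are in bold. Klf9 stands at place 2 of 19 and Klf10, Klf4 and Klf6 at places 14, 15 and 16.

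For each member the 3 genes with the most similar profile over the 9 libraries were taken, by Pearson r of log2(RPKM + 0.5). Only tested genes with a symbol or clone name were ranked. These values are descriptions over libraries that share groups and differ in depth. Chrna2, a nicotinic receptor subunit gene, was among the closest to both Klf2 (r = 0.926) and Klf4 (r = 0.926), as was Sh3d19, an adaptor protein gene (r = 0.915 and 0.896). The others were Rcsd1 for Klf2 (r = 0.930) and Cadps2, a vesicle release gene, for Klf4 (r = 0.901). Sh3d19 had 6.75, 4.17 and 5.74 RPKM in 30 min mice 1, 2 and 3, the same order of mice as Klf2, against 2.68, 3.54 and 2.44 RPKM in clean air mice. Without the 2 libraries farthest from the median, the r of Rcsd1 with Klf2 was 0.748.

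Klf6 was most like Cacnb4, a calcium channel subunit gene (r = 0.970), Sgip1 (r = 0.960) and the bicarbonate transporter gene Slc4a10 (r = 0.945). Klf9 was most like Phc3, a Polycomb gene (r = 0.988), the Hedgehog receptor gene Ptch1 (r = 0.973) and the chromatin remodeler gene Ep400 (r = 0.969). Klf10 was most like ENSMUSG00000052076 (r = 0.961), Pcgf3, another Polycomb gene (r = 0.946), and Pum2, an RNA-binding repressor gene (r = 0.943). The 13 distinct genes included 0 called in any comparison. Phc3 had 9.79, 13.11 and 15.25 RPKM in the 120 min mice, against 6.01, 3.13 and 7.60 RPKM in the clean air mice, and clean air mouse 2 was lowest for both Phc3 and Klf9.

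**Figure D5:**
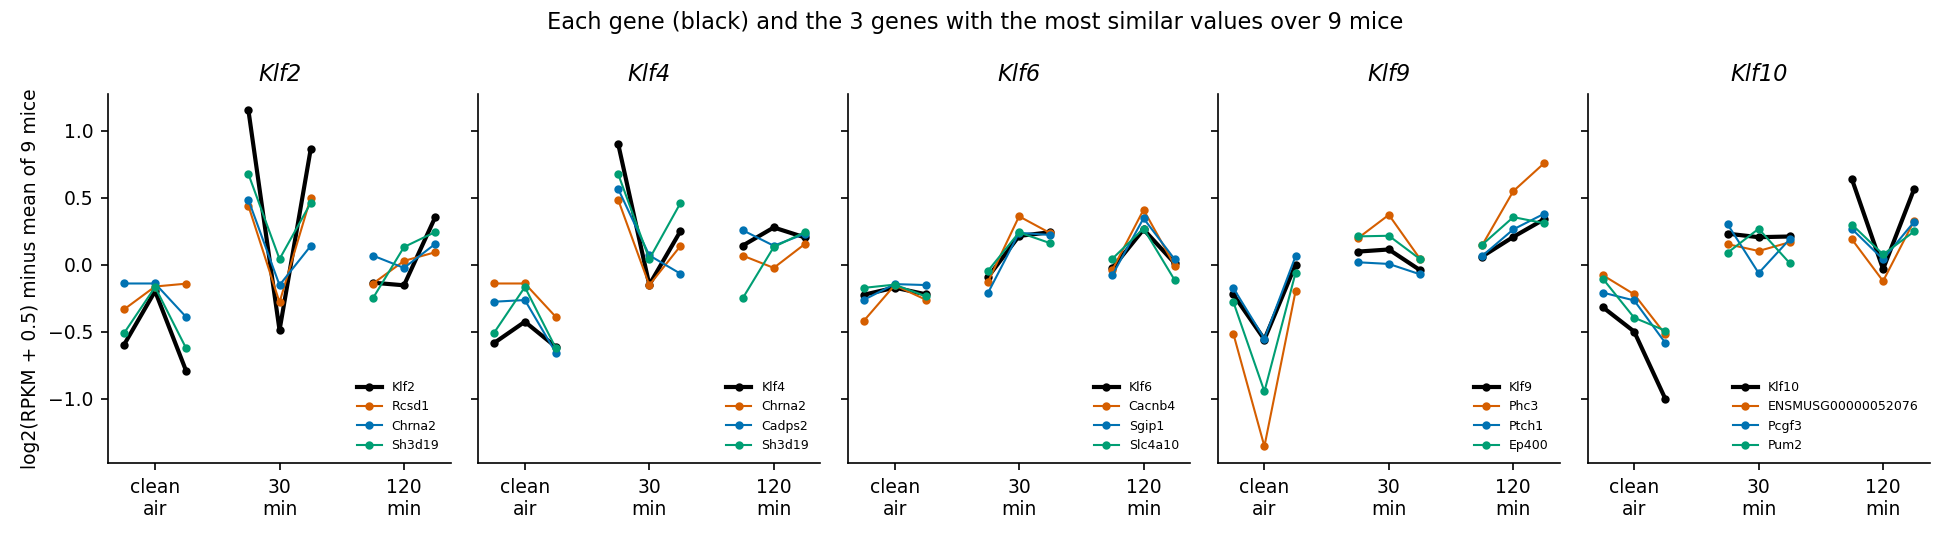
Log2(RPKM + 0.5) minus its mean over the 9 mice (vertical axes), by group. Each member is in black, and the 3 tested and named genes with the highest Pearson r to it are in color. Joined points belong to 1 gene and the mice of a group have no order. The r of these genes with their member runs from 0.896 (Sh3d19 with Klf4) to 0.988 (Phc3 with Klf9).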

How the data were processed

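Polyadenylated RNA was sequenced from paired ends, per the labels' protocols. Reads were aligned with Bowtie to mm9, per the submitters' processing notes. Nothing read here states the annotation, the counting rule, the use of strand or the treatment of reads with several matches. The authors deposited RPKM values with 2 decimals for 27497 Ensembl identifiers in 9 columns. Its values were used without further scaling.

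The 12780 genes averaging 1 RPKM or more were put on a log2(RPKM + 0.5) scale and fitted by limma 3.58.1 (R 4.3.3; lmFit and eBayes, trend on) in 1 two-sided model of all 9 mice, with 6 residual degrees of freedom. Folds on this scale understate changes of low genes. Errors of RPKM means are SD and of log2 changes SE.

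Depth was recovered from the value steps of 1884 short RNAs, with 34 nt taken off their lengths; 87.3% to 94.2% of multiples were then whole within 0.05. Estimated reads use GENCODE M21 exon lengths, and whether a unit is a read or a pair is unknown. Intervals cover counting error only. Fits were tested on simulated data.

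Members and gene lists were chosen with earlier results of these data known. Other genes named were those called on a list, the highest in mean RPKM on it or the most like a member. Any further gene, Klf12 among them, was named after its values were seen. A gene that this rule names is not reported here. Mouse numbers of the titles were checked for pairing by the correlation of deviations from group means, with 0.1 as the limit for every pair. Same-numbered libraries reached it between 30 min and clean air (0.147 to 0.383) but not between 120 min and clean air (0.0897 to 0.391) or 120 min and 30 min (0.0810 to 0.444). The main fit has no mouse block, and the blocked values are given at 30 min. GENCODE M21 and RefSeq (GRCm38.p6) supplied names and promoters by identifier or symbol; 4 of the 5 members matched a promoter. Alternatives covered the pseudocount, filter, scaling, mice compared, block and each mouse left out.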

Additional observations from a re-analysis of the deposited data

How the results depend on the processing

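Of 335 values of the 5 genes under alternative settings, 330 kept their direction and stayed uncalled, and the other 5 changed sign. All 5 belonged to 120 min minus 30 min, where the main log2 differences of Klf4 and Klf6 were near 0. Klf6 had 0.035 with quantile normalization, and -0.15 to 0.022 when single mice were left out. Klf4 had -0.37 to 0.16 when single mice were left out, with 0.16 without 30 min mouse 1. The cause was not tested. No member was called under any alternative, and the lowest limma adjusted p was 0.0751, for Klf2 at 30 min without 30 min mouse 2. The Klf2 change at 30 min ran from 0.72 to 1.54. Genes called at 120 min against clean air numbered 2 with only the 6 mice compared (11 with all 9 mice in the fit, fewer samples setting the spread), and 0 to 11 when single mice were left out. Those called in both exposed groups against clean air numbered 9 to 18 when single mice were left out. The fit with a replicate block by mouse number called 22, 11, 10 and 20 genes at 30 min, at 120 min, in 120 min minus 30 min and in both exposed groups, against 18, 11, 10 and 16 without it, and it changed no call of a member. Genes at an unadjusted p under 0.05 then numbered 1396, 1910, 854 and 1946, against 756, 1223, 430 and 1229, or 10.9%, 14.9%, 6.68% and 15.2% of those tested. In all 18 comparisons of a library with the other groups the closest deviations were those of its own number, a hint from the data and not from the design. The 18 use 9 same-numbered pairs, each from both sides. Numbers in the submitters' library names differ from those of the titles for some mice. In clean air, 30 min and 120 min, depth was 10.5, 8.80 and 9.86 M in mice 1 and 22.1, 28.8 and 24.1 M in mice 2. In mice 3 it was 29.8, 17.4 and 7.16 M. The part of depth in these matches was not tested. With 3 mice a group, Klf2 could not be placed more closely than its interval of 0.22 to 1.86 at 30 min.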

Other observations

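Klf11, a relative of Klf10 that also represses transcription, was chosen here after its values were seen. It had 2.17, 2.63 and 2.80 RPKM in the 120 min mice, against 3.49, 3.68 and 3.78 RPKM in the 30 min mice, and these groups did not overlap (log2 difference -0.46 ± 0.20; limma did not call it). In the clean air mice Klf11 had 2.46, 2.74 and 3.38 RPKM.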
